A study of Chrysanthemum x morifolium with 12 samples.

Results

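The 4 probes for the chlorophyll (Chl) breakdown pathway were followed across petals and leaves of chrysanthemum (*Chrysanthemum x morifolium*), out of 176026 probes on each array. They were taken by probe name: *SGR* is PD0028_001845, *PPH* is PD0028_028877, *PaO* is PD0028_005603, and *RCCR* is PD0028_063714. The array files name no genes, and these names come from the study's list of 31 probes for Chl metabolism. RNA was taken from ray petals at the middle stage of flower development of Feeling White (FW, white), Feeling Green (FG, green), and Feeling Green Dark (FGD, darker green), and from mature leaves of FG. FW and FGD are bud sports of FG, that is, vegetative mutants that arose on it, so each petal color is represented by a single clonal cultivar, and leaves by FG alone. All plants were grown in a greenhouse under natural daylight, no treatment is given, and each of the 4 groups has 3 replicates, giving 12 arrays hybridized by the 1-color method.

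Chl breakdown takes place in the plastid and is best known from leaf senescence and fruit ripening. SGR removes magnesium from Chl *a* to give pheophytin *a*, and plants that lack it stay green, as in pea seeds with green cotyledons. PPH then removes the phytol tail, PaO opens the porphyrin ring of the resulting pheophorbide *a*, and RCCR reduces the red product to a colorless fluorescent catabolite. In Arabidopsis, loss of PaO or RCCR lets phototoxic intermediates build up and causes cell death.

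*SGR* has a homolog, *SGR-like*, for which the array carried no specific probe, as the study notes. The letters of the array probes are not given in the files used here, so whether the *SGR* probe also binds *SGR-like* RNA was not tested. The RT-qPCR primers with which the study measured these homologs separately are shown 5′ to 3′ for that reason.
SGR forward: ctcttcatgttcattgtcacattag
SGR reverse: agttctttggtgaaaatgaaga
SGR-like forward: tggtttctgatactgctggacctt
SGR-like reverse: cctcgggataattcttgtgtactga

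Each level is the log2 of the background-corrected spot intensity minus the 75th percentile of its array, so that 0 is the intensity at that percentile and 1 unit is a doubling. On each of the 12 arrays, all 4 probes gave spots well above background, none of their spots was saturated or marked as an outlier, and all 4 passed the minimum mean intensity of 100 that left 70270 probes for testing. Differences were tested with limma on the 12 arrays together, adjusted by Benjamini-Hochberg over these probes, and called at an adjusted p under 0.05. The 75th percentile was 308 to 347 on petal arrays and 188 to 209.5 on leaf arrays. The arrays lay on 3 slides: all FG petals and 1 FW petal array (replicate 1) were on slide 1, the other FW petals and FGD replicates 1 and 2 on slide 2, and FGD replicate 3 with all leaves on slide 3. FG petals therefore share no slide with FGD petals or leaves, and FW petals share none with leaves. As a check of the tissue labels, probes for the Chl biosynthesis genes *CHLH*, *CRD*, and *PORC* were higher on every leaf array than on any petal array, with a lowest leaf level of 6.07 against a highest petal level of 3.84 for *CHLH*, 8.28 against 6.38 for *CRD*, and 7.59 against 5.89 for *PORC*. The study had reported these genes as highest in leaves from the same arrays. The check therefore shows only that the labels used here match those of the study.

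**Figure D1:**
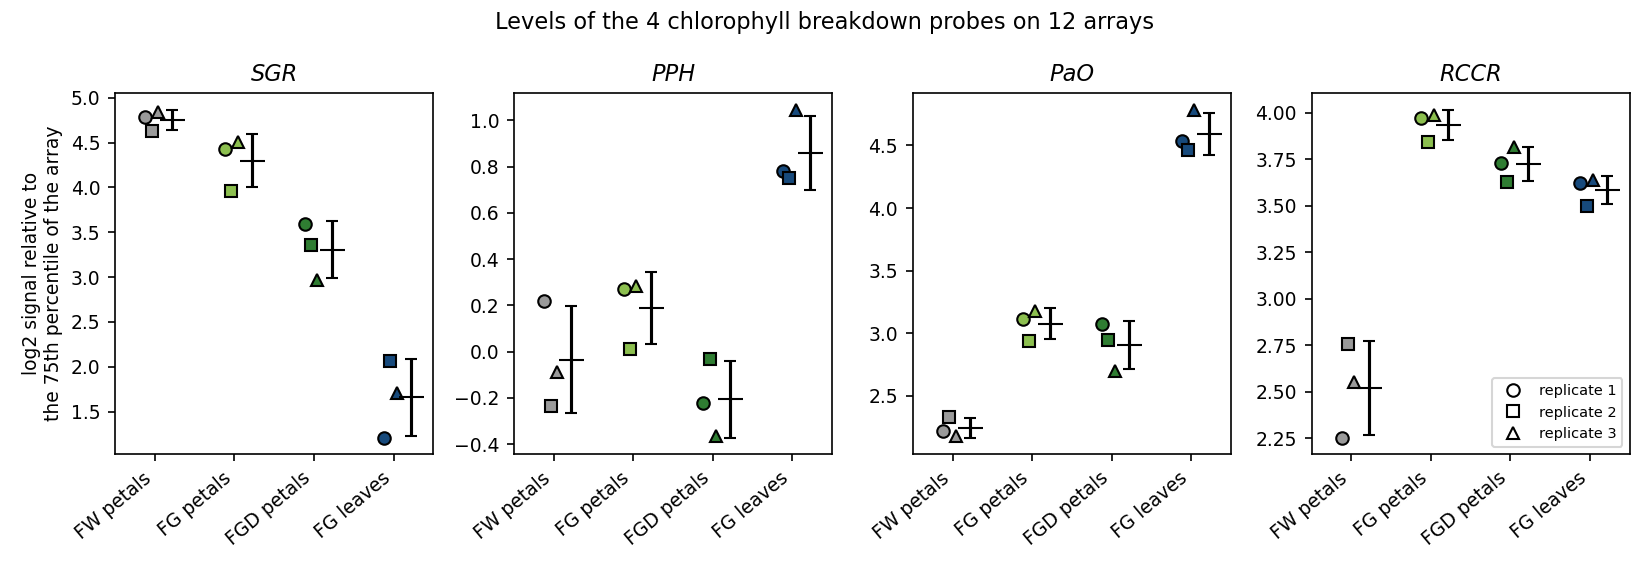
Log2 levels (vertical axis, log2 intensity relative to the 75th percentile of the array) of *SGR*, *PPH*, *PaO*, and *RCCR* in FW, FG, and FGD petals and FG leaves. Points are single arrays, and bars give the mean and SD of 3 arrays. Mean *SGR* levels step down from 4.75 in FW petals to 1.66 in leaves, whereas *PaO* runs from 2.24 in FW petals to 4.59 in leaves.

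*SGR* expression levels were highest in FW petals, though the step to FG petals was not called, lowest in leaves, and lower in FGD petals than in FG petals. Its log2 levels were 4.78, 4.63, and 4.85 in FW petals and 4.43, 3.96, and 4.50 in FG petals (replicates 1 to 3). In FGD petals they were 3.60, 3.35, and 2.97. In leaves they were 1.21, 2.07, and 1.71. The 4 groups of arrays formed separate bands that did not overlap, and the narrowest gap, 0.13, lay between FG and FW petals. The leaf arrays were the most spread, with an SD of 0.43 (n = 3), and the SD within groups was 0.31 for *SGR* in the fit, larger than that of 85.7% of the probes tested.

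Between petals, *SGR* fell by 0.99 on the log2 scale from FG to FGD (95% interval −1.49 to −0.48, adjusted p = 0.0099), which is 1.99-fold lower in FGD petals. Because FG and FGD petals share no slide, the slide was also entered as a block: the difference was then −0.77 and was not called (adjusted p = 0.371, the highest over all alternatives, which began at 0.00106). In that fit FG petals are linked to FGD petals only through FW petals, with 1 FW array on slide 1. Over all probes, the number called in FGD minus FG petals fell from 19859 to 2225 with this block. FW petals exceeded FG petals by 0.46 (95% interval −0.05 to 0.96, adjusted p = 0.118), which was not called, although their arrays did not overlap. With weights for the quality of each array this difference was 0.41 and was called (adjusted p = 0.0314). FGD petals were 2.72-fold below FW petals, with a log2 difference of −1.45 (95% interval −1.95 to −0.94, adjusted p = 0.000347). The same pair on slide 2, with 2 arrays in each group, differed by −1.26. Taken against the mean of both green petals, FW petals were higher in *SGR* by 0.95 (95% interval 0.51 to 1.39, adjusted p = 0.00202). In that comparison 3 of the 4 breakdown probes were called, *SGR* higher and *PaO* and *RCCR* lower, beside 58.8% of all probes tested (35.7% higher and 23.2% lower).

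In leaves, *SGR* was 6.21-fold lower than in FG petals, with a log2 difference of −2.63 (95% interval −3.14 to −2.13, adjusted p = 1.41e-06). In these bulk samples, fewer cells expressing a gene and less RNA per cell cannot be told apart. The gap was −3.09 against FW petals (adjusted p = 2.81e-07) and −1.64 against FGD petals (adjusted p = 5.74e-05). On slide 3, the mean of the 3 leaf arrays differed from FGD petal replicate 3 by −1.31. From the highest to the lowest group the *SGR* means spanned 3.09, or 8.52-fold, and 1.45 of that lay among the petals.

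*PPH* varied least between groups, and leaves were its only group to stand above the petals. Its log2 levels were 0.22, −0.24, and −0.09 in FW petals and 0.27, 0.01, and 0.29 in FG petals. In FGD petals they were −0.22, −0.03, and −0.36. In leaves they were 0.78, 0.75, and 1.04, above all 9 petal arrays. The FW petal arrays overlapped those of both other petals, while the FG and FGD petal arrays were 0.04 apart. The group means spanned 1.06 (2.09-fold) over the 4 groups and 0.39 (1.31-fold) over the petals.

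No *PPH* difference between petals was called. FGD petals were below FG petals by a log2 difference of −0.39 (95% interval −0.70 to −0.08, adjusted p = 0.0586). This pair lies at the threshold: it was called without FG petal replicate 2 (adjusted p = 0.0427) and without FW petal replicate 1 (adjusted p = 0.0341), whereas with the slide as a block its sign turned, to 0.07 (adjusted p = 0.904). FW minus FG petals was −0.22 (95% interval −0.53 to 0.09, adjusted p = 0.204) and FGD minus FW petals was −0.17 (95% interval −0.48 to 0.14, adjusted p = 0.318). Within slides, both were on the other side of 0 with overlapping arrays, at 0.03 for FW petal replicate 1 minus FG petals and 0.04 for FGD minus FW petals on slide 2. Leaves were higher than FG petals by 0.67 (95% interval 0.36 to 0.98, adjusted p = 0.00117), than FW petals by 0.89 (adjusted p = 0.000127), and than FGD petals by 1.06 (adjusted p = 3.82e-05). All of these calls depend on the scaling of the arrays: with arrays scaled on the spike-in spots the differences were −0.16 against FG (adjusted p = 0.403), 0.18 against FW (adjusted p = 0.35), and 0.28 against FGD petals (adjusted p = 0.154).

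*PaO* was lowest in FW petals, intermediate in both green petals, and highest in leaves. Its log2 levels were 2.22, 2.33, and 2.18 in FW petals and 3.12, 2.93, and 3.18 in FG petals. In FGD petals they were 3.08, 2.94, and 2.70. In leaves they were 4.54, 4.46, and 4.78. FW petals and leaves each stood clear of all other arrays, whereas the FG and FGD petal arrays overlapped. The SD within groups, 0.15, was close to the median of 0.14 over all probes tested.

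Relative to FG petals, *PaO* in FW petals fell by 0.83 (95% interval −1.09 to −0.57, adjusted p = 0.000266), or 1.78-fold. FGD petals exceeded FW petals by 0.66 (95% interval 0.40 to 0.92, adjusted p = 0.000746). Between the green petals the difference was −0.17 (95% interval −0.43 to 0.09, adjusted p = 0.306). Within slides, FW petal replicate 1 differed from the FG petals by −0.86, and the 2 FGD from the 2 FW petal arrays of slide 2 by 0.75. In leaves, *PaO* was higher than in FG petals by 1.52 (95% interval 1.26 to 1.78, adjusted p = 5.82e-07), or 2.86-fold. It exceeded FW petals by 2.35 (adjusted p = 1.19e-08), the whole span of this probe, and FGD petals by 1.69 (adjusted p = 2.51e-07).

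*RCCR* was lower in FW petals than in each of the other 3 groups. Its log2 levels were 2.25, 2.76, and 2.55 in FW petals and 3.97, 3.84, and 3.99 in FG petals. In FGD petals they were 3.73, 3.63, and 3.81. In leaves they were 3.62, 3.50, and 3.64. Every FW petal array lay below every array of the other groups, FG petals lay above FGD petals by a gap of 0.03, and FGD petals and leaves overlapped. The span of 1.41 (2.66-fold) ran from FW to FG petals, so that *RCCR* had its full span within petals.

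In FW petals, *RCCR* fell by 1.41 relative to FG petals (95% interval −1.67 to −1.16, adjusted p = 7.03e-06), and 7.39% of the probes tested differed by more in either direction. FGD petals exceeded FW petals by 1.20 (95% interval 0.94 to 1.46, adjusted p = 1.21e-05), and leaves exceeded FW petals by 1.06 (95% interval 0.81 to 1.32, adjusted p = 7.21e-06). The last of these was 0.35 with spike-in scaling (adjusted p = 0.0102) and 0.37 without scaling (adjusted p = 0.0223). Within slides, FW petal replicate 1 minus FG petals gave −1.68, and FGD minus FW petals gave 1.02 on slide 2. The green petals differed from each other by −0.21 (95% interval −0.47 to 0.05, adjusted p = 0.2), which was not called. With the slide as a block, FGD minus FG petals was larger, at −0.66, and still not called (adjusted p = 0.0611). Leaves were lower than FG petals by a log2 difference of −0.35 (95% interval −0.61 to −0.09, adjusted p = 0.0179). That call was lost without FG petal replicate 1 (adjusted p = 0.0526), without FG petal replicate 3 (adjusted p = 0.0537), and without leaf replicate 2 (adjusted p = 0.0571). Leaves minus FGD petals was −0.14 (95% interval −0.40 to 0.12, adjusted p = 0.292). With spike-in scaling this difference was −0.93 (adjusted p = 7.33e-06) and without scaling −0.86 (adjusted p = 0.000104). Quantile normalization gave −0.35 (adjusted p = 0.017), and all of these were called.

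**Figure D2:**
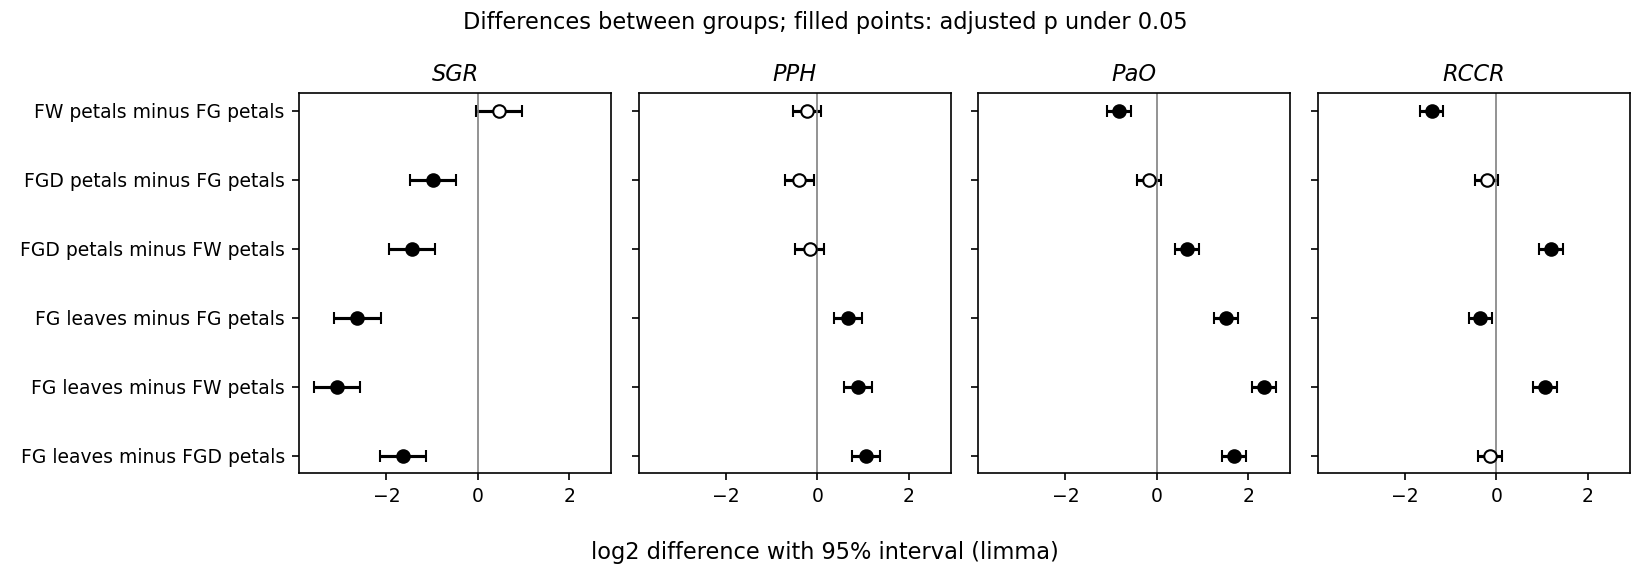
Log2 differences between groups (horizontal axis) for *SGR*, *PPH*, *PaO*, and *RCCR*, with points for the limma estimate and bars for its 95% interval. Filled points were called at an adjusted p under 0.05. In FW minus FG petals, *RCCR* at −1.41 and *PaO* at −0.83 lie below 0, and the interval of *SGR*, from −0.05 to 0.96, includes 0.

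Along the pathway, the 4 probes did not all move in the same direction. For FW against FG petals, 2 of the 4 were called, *PaO* and *RCCR*, both lower, beside 50.5% of all probes tested (30.4% higher and 20% lower). For FGD against FG petals, 1 of 4 was called, *SGR*, lower, beside 28.3% (14.1% higher and 14.2% lower). These comparisons use the same FG petal arrays. For FGD against FW petals, 3 of 4 were called, *PaO* and *RCCR* higher and *SGR* lower, beside 57.6% (24% higher and 33.6% lower). With only 4 probes, these counts lie near the background shares.

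In leaves, *SGR* was lower and *PaO* higher than in each group of petals, and *PPH* was higher on the 75th percentile scale but not called on the spike-in scale. All 4 probes were called against FG petals, *PPH* and *PaO* higher and *SGR* and *RCCR* lower, beside 76.9% of all probes (33.8% higher and 43.1% lower). Against FW petals all 4 were called, 3 higher and *SGR* lower, beside 81.8% (33.6% higher and 48.2% lower). Against FGD petals 3 were called, *PPH* and *PaO* higher and *SGR* lower, beside 77.9% (34.8% higher and 43.2% lower). These comparisons share the leaf arrays. Against the mean of the 3 petal groups 3 were called, beside 82.5% (35.5% higher and 47% lower): *SGR* fell by 2.46, *PPH* was higher by 0.88, and *PaO* was higher by 1.85. *RCCR* differed there by 0.19 (95% interval −0.02 to 0.40, adjusted p = 0.0821). On the spike-in scale *PPH* differed from the petal mean by 0.10 (adjusted p = 0.518), and *RCCR* turned to −0.59 (adjusted p = 5.43e-05). Without scaling these were 0.14 (adjusted p = 0.213) and −0.55 (adjusted p = 0.000623).

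The median difference of the 4 probes was −0.53 for FW minus FG petals, −0.30 for FGD minus FG petals, and 0.16 for leaves minus FG petals. Over all probes tested it was 0.11, 0.01, and −0.11. In FGD minus FG petals all 4 differences were below 0 and *SGR* alone was called, while in the other comparisons the members lay on both sides of 0.

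Because the level of 1 probe cannot be set against that of another, unequal change was followed through the log2 ratio of 2 probes on the same array, which does not depend on how that array is scaled. The ratio of *SGR* to *RCCR*, the first and the last step, was 2.53, 1.87, and 2.29 in FW petals. It was 0.46, 0.12, and 0.51 in FG petals. It was −0.13, −0.27, and −0.84 in FGD petals. It was −2.41, −1.43, and −1.93 in leaves. The 4 groups did not overlap, in the order FW, FG, FGD, and leaves. For *SGR* to *PaO* the order was the same, again without overlap, and the group means were 2.51, 1.22, 0.40, and −2.93.

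Relative to FG petals, the *SGR* to *RCCR* ratio was higher in FW petals by 1.87 and lower in FGD petals and leaves by differences of −0.78 and −2.29. For *PaO* and *RCCR*, which act in succession, the ratio differed by 0.04 between the green petals, and the arrays overlapped. In FW petals their ratio was higher than in FG petals by 0.58, and in leaves by 1.87. A ratio does not remove a slide effect that differs between 2 probes, and FG petals share no slide with FGD petals or leaves. With the slide as a block, FGD minus FG petals was −0.77 for *SGR*, −0.10 for *PaO*, and −0.66 for *RCCR*. The ratios were not adjusted for slide. Over the 6 pairs of probes and 4 pairs of groups, 24 differences of ratios were computed. No ratios of other tested probes were computed, so separation of the groups by these ratios cannot be called particular to the 4 probes. An exact two-sided permutation test over 3 against 3 arrays cannot go below p = 0.10, which the 22 differences without overlap reached (adjusted p = 0.109). The other differences were those of *PPH* to *RCCR* (exact p = 0.4) and of *PaO* to *RCCR* (exact p = 1) in FGD against FG petals.

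**Figure D3:**
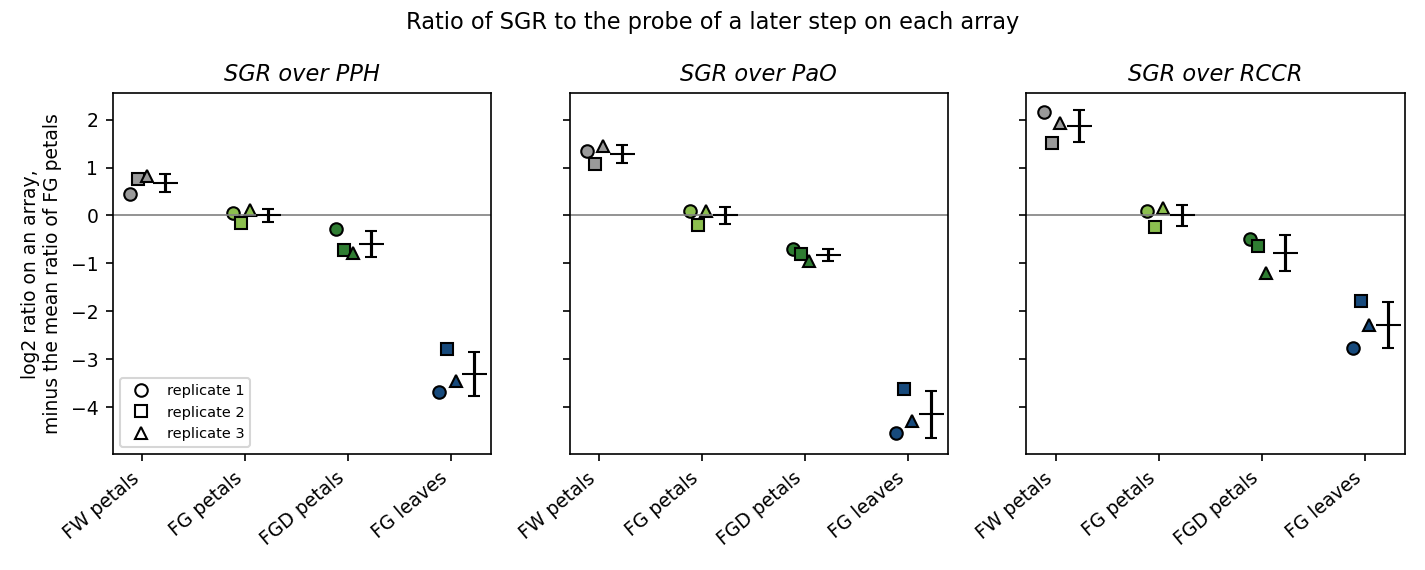
Log2 ratios of *SGR* to *PPH*, *PaO*, and *RCCR* on each array, minus the mean ratio of FG petals (vertical axis), by group. Points are single arrays, and bars give the mean and SD of 3 arrays. *SGR* to *RCCR* lies at a mean of 1.87 in FW petals, −0.78 in FGD petals, and −2.29 in leaves relative to FG petals at 0.

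The remaining 27 probes of the Chl list comprise 22 for biosynthesis, which builds Chl from glutamate through porphyrins, and 5 for the Chl cycle, which interconverts Chl *a* and *b*. Of the biosynthesis probes, 16 passed the intensity minimum. In FW minus FG petals, 13 of these 16 were called lower and 0 higher, beside 20% lower and 30.4% higher over all probes tested. Their median was −1.20, between the differences of *PaO* and *RCCR* in the same comparison. In FGD minus FG petals, 7 were called higher and 1 lower, beside 14.1% and 14.2% of all probes, with a median of 0.35, and the number called was 4 to 5 when FG petal replicate 1 or 3 or any FGD petal replicate was left out. In leaves minus FG petals, 12 were called higher and 1 lower, beside 33.8% and 43.1%, with a median of 0.83. The 5 Chl cycle probes gave 2 higher and 2 lower in FW minus FG petals, 0 higher and 2 lower in FGD minus FG petals, and 4 higher and 0 lower in leaves minus FG petals, with the same shares of all probes beside them. In FGD minus FG petals the number of cycle probes called was 1 without FG petal replicate 1 or 3, FW petal replicate 3, or FGD petal replicate 2 or 3. These lists were made by the study, and no set test was run on them.

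Scaling matters most for leaves, because the 75th percentile of the leaf arrays was lower while the mean log2 intensity of the spike-in spots was 12.04 to 12.10 on leaf arrays and 11.82 to 12.12 on petal arrays. When arrays were scaled on the 8 spike-in probes, the median difference of all probes between leaves and FG petals moved from −0.11 to −0.94. The share of called probes that were higher in leaves went from 44% to 17.5%. On that scale *SGR* differed by −3.46 (adjusted p = 7.03e-08), *PPH* by −0.16 (adjusted p = 0.403), *PaO* by 0.69 (adjusted p = 0.000171), and *RCCR* by −1.18 (adjusted p = 9.52e-07). Relative to the median of all probes, the differences were −2.52 for *SGR*, 0.78 for *PPH*, 1.63 for *PaO*, and −0.24 for *RCCR*. These values are the same under the percentile and the spike-in scaling by construction, since both shift all probes of an array by 1 constant. How much of the shift lies in the RNA content of the tissues was not tested. With the slide as a block, leaves minus FG petals was −2.08 for *SGR* (adjusted p = 0.0106), 1.29 for *PPH* (adjusted p = 0.00423), 1.79 for *PaO* (adjusted p = 0.00059), and −0.88 for *RCCR* (adjusted p = 0.00509). In that fit leaves are linked to FG petals only through FW and FGD petals. Slide 1 holds 1 FW array and slide 3 holds 1 FGD array.

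For petals the same change of scale moved the share of calls that were higher from 60.3% to 38.2% in FW minus FG petals and from 41.6% to 52.4% in FGD minus FW petals. In FW minus FG petals the median of all probes moved from 0.11 to −0.0019, and relative to that median *SGR* differed by 0.35, *PPH* by −0.33, *PaO* by −0.94, and *RCCR* by −1.52. The direction of the *SGR*, *PaO*, and *RCCR* differences called between petals was the same on both scales.

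**Figure D4:**
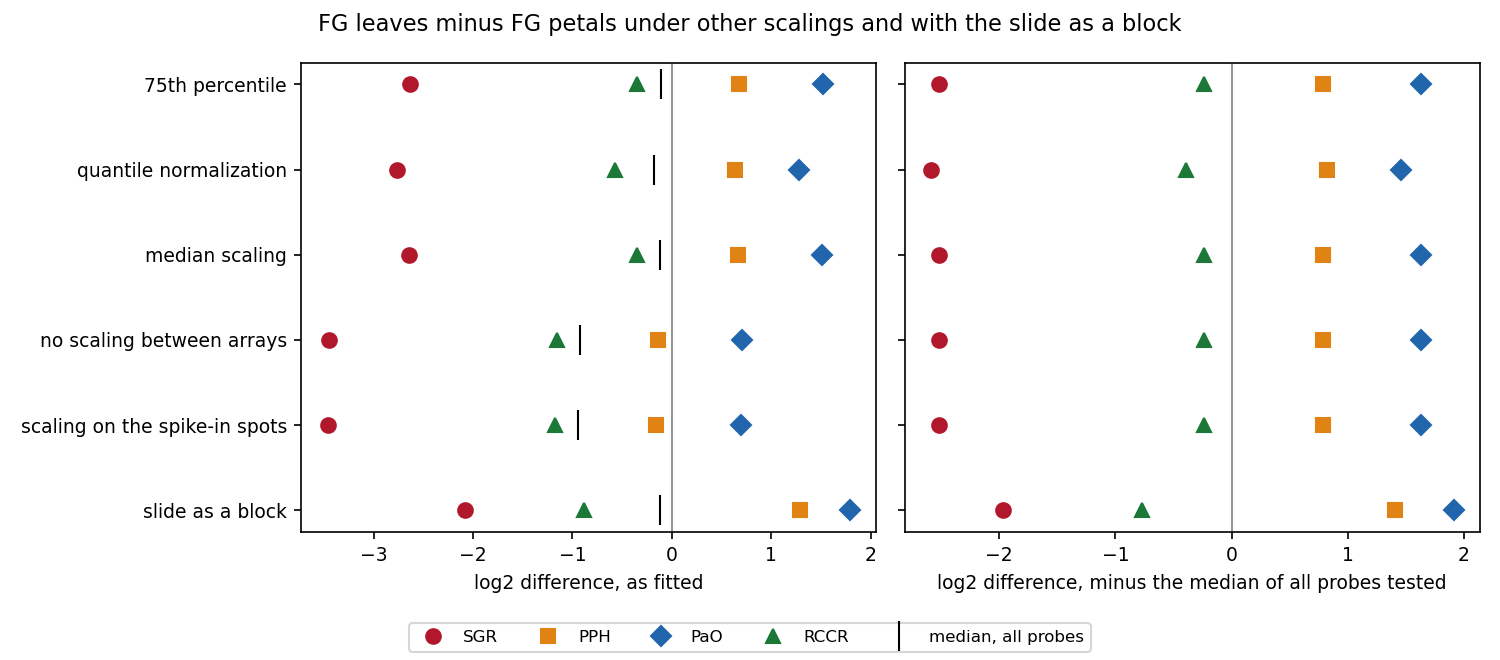
Leaves minus FG petals as log2 differences (horizontal axis) for *SGR*, *PPH*, *PaO*, and *RCCR* under 5 scalings and with the slide as a block, as fitted (left, black ticks give the median of all probes) and relative to that median (right). *PPH* crosses 0 as fitted, from 0.67 under the 75th percentile to −0.16 under spike-in scaling, and is 0.78 on the right under both, which follows from how the scalings are made, since each shifts all probes of an array alike.

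Each profile was then set against those of all other tested probes, as a description. Profiles were centered on their own mean over the 12 arrays, and likeness was the root mean square of the log2 differences between them. *SGR* had the fewest near matches, with 10 of 70269 probes within 0.25, against 190 for *RCCR*, 630 for *PaO*, and 2226 for *PPH*, the probe with the smallest span. The closest to *SGR* were PD0028_093542 at 0.086 and PD0028_058850 at 0.169. Those closest to *PPH* were PD0028_008664 at 0.083 and PD0028_107611 at 0.086. PD0028_018535 at 0.067 and PD0028_082720 at 0.096 were closest to *PaO*, and PD0028_094017 at 0.106 and PD0028_158518 at 0.108 to *RCCR*. None of these 8 probes is named in the files, so whether any of them targets the same transcript as its member was not tested.

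The closest probe to *SGR*, PD0028_093542, had mean levels of 2.25 in FW, 1.87 in FG, and 0.86 in FGD petals and −0.90 in leaves, the same order as *SGR*. PD0028_094017, the closest to *RCCR*, had means of 0.22, 1.72, 1.58, and 1.33 in these groups and was likewise lowest in FW petals. Within the rest of the Chl list, of which 24 probes were compared, the nearest to *SGR* was the probe listed as *CAO*, at a distance of 1.07. Whether this probe measures the *CAO* transcript was not tested. It varied far less than *SGR* and in another order. Its means were 0.43 in FW, 0.03 in FG, and 0.12 in FGD petals and −0.07 in leaves. Nearest to *PPH* was *CHLM*, a methyltransferase of the magnesium branch of Chl synthesis, at 0.253. For *PaO* it was *NOL*, a subunit of Chl *b* reductase in the Chl cycle, at 0.354. For *RCCR* it was *HEMC*, a porphyrin synthesis enzyme, at 0.316. No probe of the list came within 0.25 of any of the 4.

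**Figure D5:**
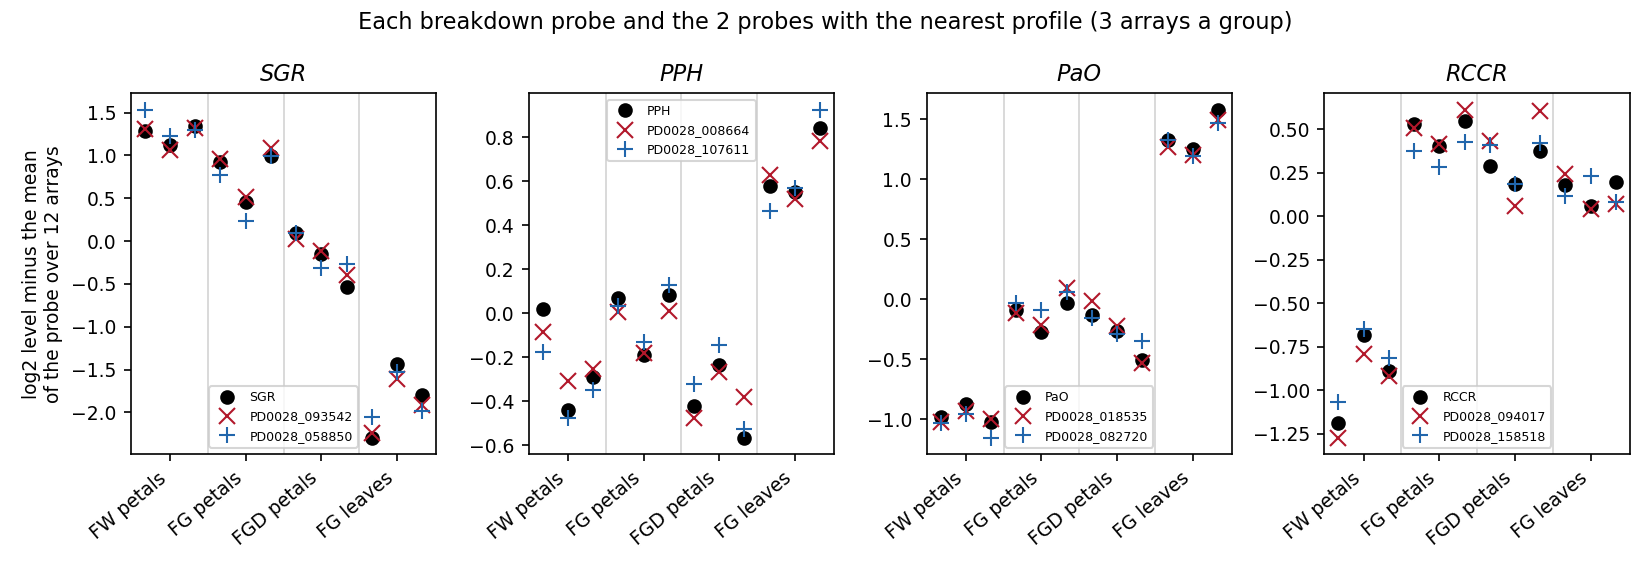
Centered log2 levels (vertical axis, level minus the mean of the probe over 12 arrays) of *SGR*, *PPH*, *PaO*, and *RCCR* and of the 2 probes with the most similar profile to each, by array. Points are single arrays. Those of *SGR* and PD0028_093542 differ by 0.086 on average, as a root mean square.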

How the data were processed

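Total RNA from 3 replicates of each of 4 groups was labeled with Cy3 and hybridized to custom Agilent arrays. The authors deposited the scanner output, in which the intensity of each spot is background-subtracted and detrended by Feature Extraction but not scaled between arrays (version 10.10.1.1 in the file headers, 10.7.1.1 in the submitters' processing notes). A second file the authors deposited holds log2 values, centered for each probe on an unstated value, and served as an alternative.

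From the log2 intensities of each array, the 75th percentile of its 176026 probes was subtracted. The 4854 control spots were left out and outlier spots, 7 to 37 per array, were set as missing. Probes with a mean intensity of at least 100 (70270) were fitted with limma 3.58.1 in R 4.3.3 (with jsonlite 2.0.0 and data.table, version 1.17.8), with 1 mean per group and Benjamini-Hochberg adjustment. Python 3.11.15 with matplotlib 3.10.9 drew the figures. The fit was checked on simulated data with independent noise and with changes placed in FW petals only. That simulation held no slide effect and no shift in scale between tissues, so it cannot check either.

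Precision is limited by 3 arrays per group. The study's methods call the replicates biological, but no source says which came from separate plants, so p-values measure the spread between these samples, part of which may be technical. The members and lists were chosen with earlier results of these data known. Named probes are the 4 members, the 2 tested probes closest to each by root mean square difference of centered profiles, and the closest probe of the Chl list. Alternatives were other scalings, filters, variance models, array weights, blocks for replicate number and slide, and leaving out each array. Normexp on median signals (offset 50), the slide as a random block, and petal arrays only were chosen after seeing the data.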

Additional observations from a re-analysis of the deposited data

How the results depend on the processing

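Of the 24 differences between pairs of groups, 13 kept their direction and stayed called, or stayed not called, under all alternatives run. *PaO* in FGD minus FG petals, not called under any alternative (lowest adjusted p = 0.0952), is counted among them. The cause of the changes was not tested. Without scaling, *PPH* gave −0.34 in FW minus FG petals and −0.48 in FGD minus FG petals, both called, and −0.14 (reversed) and 0.20 in leaves minus FG and FW petals, neither called. *RCCR* gave −0.86 in leaves minus FGD petals, called, and −0.55 (reversed) in leaves minus the mean of the petals. With spike-in scaling, *PPH* in leaves gave −0.16 (reversed), 0.18, and 0.28 against FG, FW, and FGD petals, none called, and *RCCR* gave −0.93, called, against FGD petals and −0.59 (reversed) against the petal mean. Quantile normalization gave −0.35 for *RCCR* in leaves minus FGD petals, called. With array weights, *SGR* in FW minus FG petals was 0.41, *PPH* in FW and FGD minus FG petals was −0.34 and −0.44, and *RCCR* in FGD minus FG petals was −0.24, all called. Normexp on median signals, chosen after seeing the data, gave −0.38 for *PPH* in FGD minus FG petals, called. The slide block gave −0.77 for *SGR* in FGD minus FG petals, not called, and turned the sign of *PPH*, uncalled before and after, to 0.03 in FW minus FG, 0.07 in FGD minus FG, and 0.04 in FGD minus FW petals. Leaving out 1 array gave −0.48 to −0.32 for *PPH* in FGD minus FG petals and −0.40 to −0.31 for *RCCR* in leaves minus FG petals.

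Among all probes, 19859 were called in FGD minus FG petals, against 33854 with array weights and 2225 with the slide block. In leaves minus FG petals, 54057 were called, against 110550 without the intensity filter and 84646 with a filter on probes well above background. Those filters also test more probes. Background correction by normexp on mean signals was not run, since the files used here hold median signals.

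Same-numbered arrays of different groups did not deviate together more than differently numbered ones. Their 18 correlations ran from −0.36 to 0.39, and 5 were above 0.1. For differently numbered arrays, 36 correlations ran from −0.42 to 0.44, and 10 were above 0.1. Of the 12 arrays, 3 correlated best with their own number. The replicate block changed no call of the 4 probes, with −0.99 for *SGR* in FGD minus FG petals (adjusted p = 0.0236).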

Other observations

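In FG petals, replicate 2 was the lowest of the 3 arrays for all 4 Chl breakdown probes and replicate 3 the highest. Over all probes tested, 35.4% were lowest on replicate 2 and 35.1% highest on replicate 3. This order was noticed after seeing the data and no cause was tested.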
